A study of Homo sapiens with 9 samples.

Results

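The 44 genes described here belong to the ATF4 arm of the integrated stress response and to the unfolded protein response. They were taken as the rows of the gene count table whose Ensembl identifiers map to a fixed list of 44 symbols, and all 44 were found. Chaperone genes of the HSP and DNAJ families and tRNA synthetase genes are not in the list. The count table held 51796 genes, 14582 of them had enough reads to be tested, and all 44 members were among these. By role, 15 members are signalling genes, 14 supply amino acids, 13 act in the endoplasmic reticulum (ER) and 2 are other targets of ATF4. RNA came from A549 cells, an established line of human lung adenocarcinoma, grown under puromycin selection with stably expressed short hairpin RNAs. The 9 libraries form 3 groups of 3 biological replicates, with a hairpin against PRMT5, a hairpin against MEP50, or a control hairpin against GFP. PRMT5 is the arginine methyltransferase of the methylosome, and MEP50, a WD-repeat protein, binds it there (its gene is WDR77). The labels describe 1 kind of knockdown line per target and do not say whether the replicates came from separately infected cultures, so p-values measure the spread between these libraries, which may be technical.

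In the integrated stress response, kinases such as PERK (EIF2AK3, which senses misfolded protein in the ER) and GCN2 (EIF2AK4, which senses uncharged tRNA) phosphorylate the translation factor eIF2alpha. General protein synthesis then drops while the mRNA of the transcription factor ATF4 is translated more, and ATF4 raises genes for amino acid synthesis and import. In the unfolded protein response the ER sensors IRE1 (ERN1) and ATF6 act beside PERK, IRE1 through splicing of the XBP1 mRNA, and their targets are folding enzymes and factors of ER-associated degradation. Gene counts measure RNA only, so the translation of ATF4, the splicing of XBP1 and the phosphorylation of eIF2alpha were not measured.

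Libraries held 20806181 to 31586128 reads on genes. Levels are counts-per-million values (CPM) scaled by TMM, which balances library composition, and the test is the quasi-likelihood test of edgeR, adjusted by Benjamini-Hochberg over all 14582 genes, with a call at an adjusted p below 0.05. PRMT5 RNA was 70.1, 67.5 and 69.1 CPM in PRMT5 knockdown libraries, against 211, 209 and 205 CPM in the control libraries, and WDR77 RNA was 13.6, 10.7 and 13.3 CPM in MEP50 knockdown libraries, against 39.2, 39.6 and 39.3 CPM in the control libraries. WDR77 RNA was also slightly higher under PRMT5 knockdown than in the control (0.16 ± 0.0633 on the log2 scale, edgeR adjusted p = 0.0300), a call lost without any of the control libraries or without PRMT5 knockdown library 1 or 2, with log2 values of 0.11 to 0.19 over all single libraries left out. Each hairpin thus left 33.1% (PRMT5) and 31.8% (WDR77) of its target's control level. Reads outside annotated genes made up 13.7 to 14.5% of counted reads under PRMT5 knockdown, 12.3 to 13.8% under MEP50 knockdown and 11.9 to 12.4% in the control. Of 6 epithelial markers, KRT8 and KRT18 carried most reads, and the markers summed to 4152 to 4311 CPM under PRMT5 knockdown, 3867 to 4144 CPM under MEP50 knockdown and 6341 to 6571 CPM in the control. CDH1 and KRT7 of this list were higher under MEP50 knockdown, with CDH1 at 34.9 ± 2.44 CPM under PRMT5 knockdown, 75.5 ± 8.49 CPM under MEP50 knockdown and 40.1 ± 1.64 CPM in the control, and KRT7 at 3.24 ± 0.900 CPM under PRMT5 knockdown, 4.19 ± 0.579 CPM under MEP50 knockdown and 2.52 ± 0.353 CPM in the control (SD, n = 3). EPCAM did not exceed 0.290 CPM in any library, and KRT19 had reads in 1 control library only. Markers of blood cells summed to at most 0.199 CPM and those of endothelial cells to at most 0.270 CPM. Fibroblast markers summed to 10.5 to 11.4 CPM under PRMT5 knockdown, 25.8 to 27.6 CPM under MEP50 knockdown and 11.0 to 13.1 CPM in the control, while PDGFRB and DCN among them did not exceed 0.141 and 0.0483 CPM. Within these sums, LUM was at 0.628 ± 0.240 CPM under PRMT5 knockdown, 7.90 ± 0.167 CPM under MEP50 knockdown and 5.17 ± 0.646 CPM in the control, and COL1A1 at 10.4 ± 0.340 CPM under PRMT5 knockdown, 18.7 ± 0.854 CPM under MEP50 knockdown and 6.87 ± 0.735 CPM in the control. The part of the marker levels in the results below was not tested. In bulk RNA, fewer cells of a kind and less RNA per cell cannot be told apart.

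Among amino acid supply genes 8 of 14 were higher under PRMT5 knockdown and 12 of 14 under MEP50 knockdown, while ER genes showed mostly small changes in both directions. Under PRMT5 knockdown against the control, 16 members were called higher and 12 lower, where 26.1% and 24.9% of all tested genes were called in these directions. Under MEP50 knockdown against the control, 24 members were higher and 13 lower, against 26.5% and 25.2% of all tested genes. A call with an absolute log2 fold change of at least 0.5 was met by 7 members (15.9%) under PRMT5 knockdown, against 17.2% of all tested genes. Under MEP50 knockdown 16 members (36.4%) met it, against 18.9% of all tested genes. The levels of the PRMT5 knockdown and control libraries did not overlap for 33 members (75.0%), against 57.2% of all tested genes. Those of the MEP50 knockdown and control libraries did not overlap for 37 members (84.1%), against 56.9%. Both comparisons share the control libraries, so the values are given side by side, with no count of shared changes. The median log2 fold change over the 44 members was 0.02 under PRMT5 knockdown and 0.17 under MEP50 knockdown. Over all tested genes the median stayed between -0.02 and 0.02 in every comparison and scaling.

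**Figure D1:**
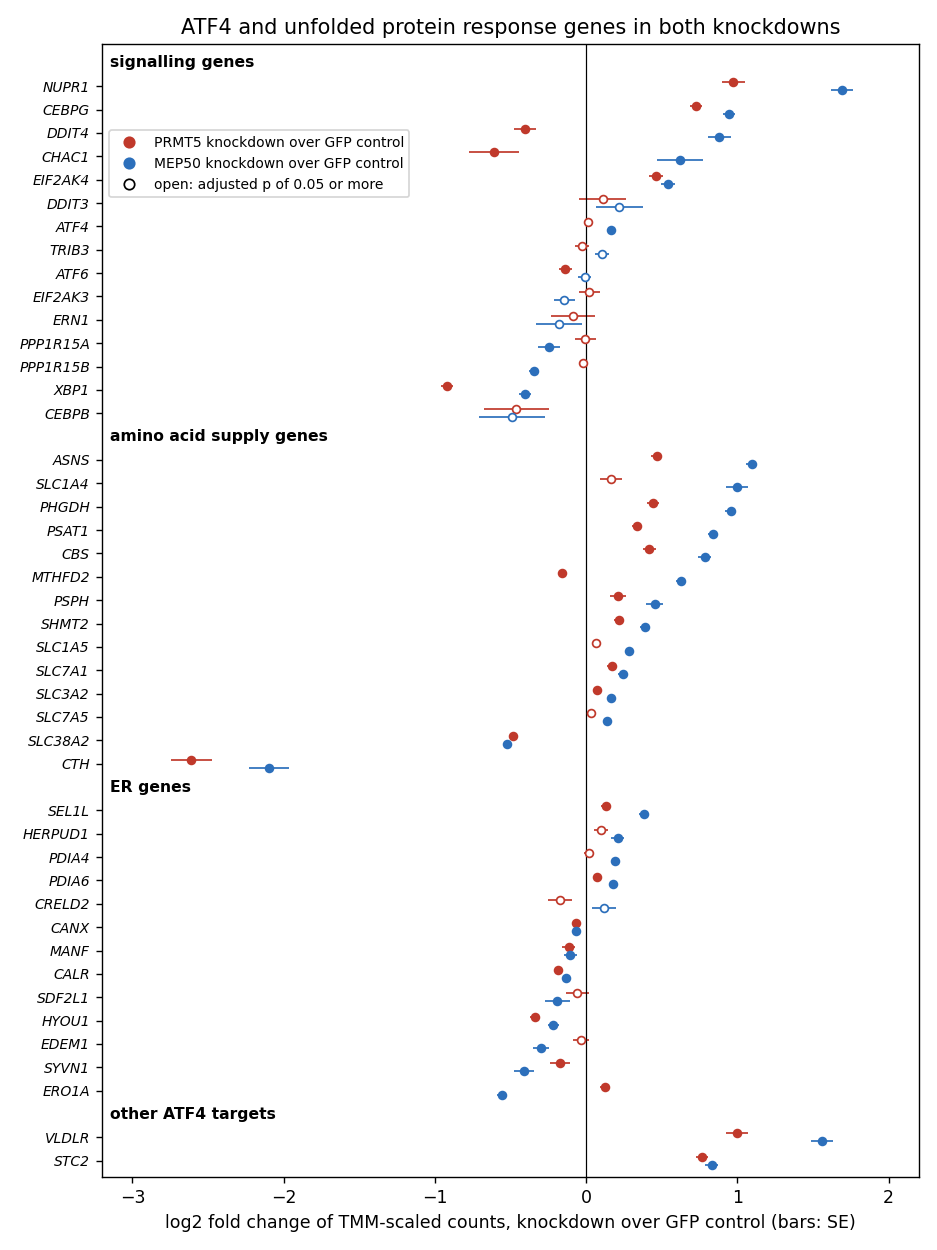
Log2 fold change (horizontal axis, with SE bars) of each of the 44 genes, under PRMT5 knockdown (red) and the MEP50 knockdown (blue) over the GFP control, grouped by role, with open symbols for adjusted p of 0.05 or more. VLDLR, NUPR1, CEBPG and STC2 lie right of 0 in both knockdowns, CTH, XBP1 and SLC38A2 lie left of it in both, and DDIT4, CHAC1, MTHFD2 and ERO1A lie on opposite sides.

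The levels of the members per length spanned a wide range. Levels as TPM (transcripts-per-million values) were computed from the deposited counts and exon lengths. The length of a gene was that of all its annotated exons merged, which can exceed the length of its main mRNA. Orders and ratios between genes in TPM therefore depend on this annotation. In the control libraries CALR, the ER lectin chaperone calreticulin, was highest with 1318 ± 30.5 TPM, followed by its membrane-bound relative CANX with 1109.7 ± 13.4 TPM and the leucine carrier SLC7A5 with 912 ± 9.69 TPM (SD, n = 3 here and below). ATF4 was the most abundant signalling member at 547 ± 26.1 TPM in the control. ERN1, which encodes the sensor IRE1, was the least abundant of the 44 at 2.27 ± 0.208 TPM in the control. The other sensors lay between these, with 37.1 ± 1.42 TPM for ATF6, 20.1 ± 1.27 TPM for EIF2AK4 and 18.4 ± 0.397 TPM for EIF2AK3 in the control.

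**Figure D2:**
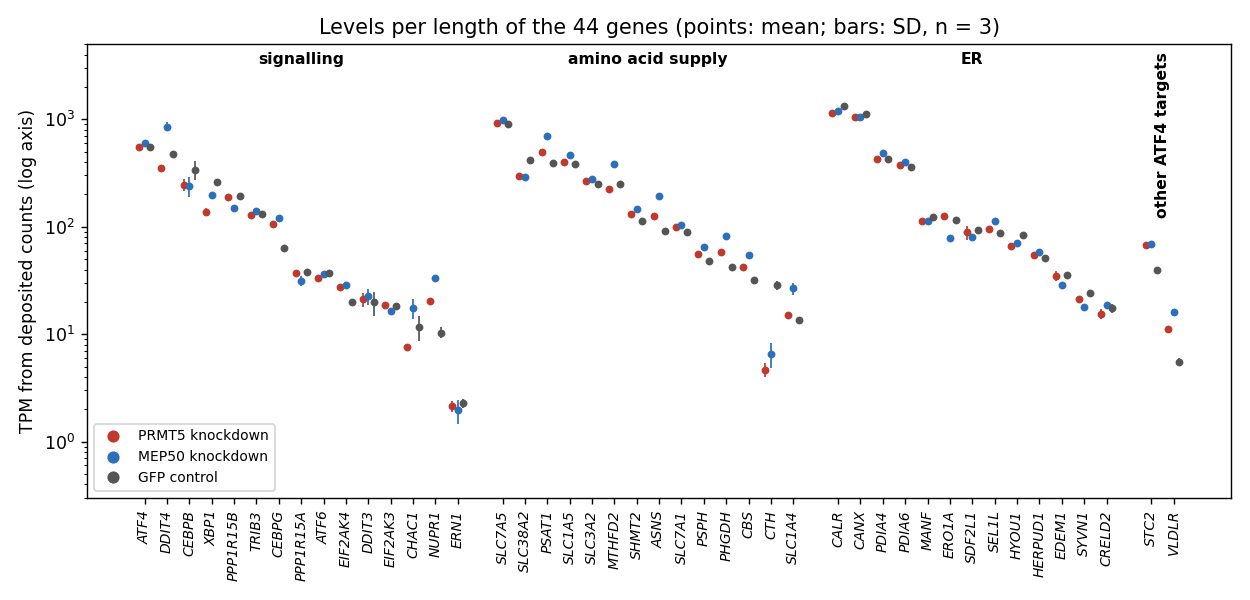
TPM (log axis) of the 44 genes by role, with the mean and SD of 3 libraries for the PRMT5 knockdown, the MEP50 knockdown and the GFP control. Levels in the control run between 5.55 TPM for VLDLR and 1318 TPM for CALR, apart from ERN1 at 2.27 TPM.

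Of the 15 signalling genes, 3 were higher and 4 lower under PRMT5 knockdown, and 6 were higher and 3 lower under MEP50 knockdown. These shares were 20% and 26.7% under PRMT5 knockdown, near the 26.1% and 24.9% of all tested genes, and 40% and 20% under MEP50 knockdown, beside 26.5% and 25.2%. EIF2AK4 was the only sensor that rose, and the other sensors changed less. EIF2AK4 stood at 87.3, 89.0 and 90.3 CPM under PRMT5 knockdown, 87.9, 96.6 and 97.2 CPM under MEP50 knockdown and 60.7, 66.7 and 65.9 CPM in the control. Both knockdown groups lay wholly above the control, with log2 fold changes of 0.46 ± 0.0449 (PRMT5 knockdown, SE here and below, edgeR adjusted p = 1.54e-11) and 0.54 ± 0.0454 (MEP50 knockdown, edgeR adjusted p = 2.40e-13). EIF2AK3 stood at 25.7, 27.9 and 28.1 CPM under PRMT5 knockdown, 23.0, 25.6 and 24.3 CPM under MEP50 knockdown and 27.4, 25.9 and 27.3 CPM in the control. Its log2 fold changes of 0.02 ± 0.0675 under PRMT5 knockdown and -0.14 ± 0.0698 under MEP50 knockdown passed no threshold (edgeR adjusted p = 0.818 and 0.0814). ERN1 stood at 6.82, 5.35 and 6.65 CPM under PRMT5 knockdown, 5.46, 4.53 and 7.36 CPM under MEP50 knockdown and 6.02, 6.84 and 7.02 CPM in the control. The MEP50 knockdown library 3 was the highest of all 9 for ERN1 and library 2 of the same group the lowest. Without library 3 ERN1 was called lower in that knockdown (log2 fold change -0.42, edgeR adjusted p = 0.0331), against -0.18 ± 0.150 (edgeR adjusted p = 0.332) with it. ATF6 stood at 69.4, 70.4 and 74.4 CPM under PRMT5 knockdown, 75.4, 78.6 and 80.1 CPM under MEP50 knockdown and 76.3, 78.8 and 80.7 CPM in the control. It fell slightly under PRMT5 knockdown, by 0.14 ± 0.0432 on the log2 scale (edgeR adjusted p = 0.00714), and its difference was -0.01 ± 0.0437 under MEP50 knockdown (edgeR adjusted p = 0.873).

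ATF4 RNA was 374, 364 and 379.7 CPM under PRMT5 knockdown, 405, 423 and 415 CPM under MEP50 knockdown and 356, 380.4 and 372 CPM in the control. The MEP50 knockdown libraries lay above all others, while the PRMT5 knockdown and control libraries overlapped. ATF4 thus rose 1.12-fold under MEP50 knockdown (log2 difference 0.17 ± 0.0292, edgeR adjusted p = 6.60e-06), and its log2 fold change under PRMT5 knockdown was 0.01 ± 0.0291 (edgeR adjusted p = 0.752). CEBPG, a bZIP partner of ATF4, was 122, 131 and 122 CPM under PRMT5 knockdown, 142, 146 and 149 CPM under MEP50 knockdown and 72.9, 77.4 and 76.1 CPM in the control. All 6 knockdown libraries were above the control libraries, by 0.73 ± 0.0394 under PRMT5 knockdown and 0.95 ± 0.0396 under MEP50 knockdown on the log2 scale (edgeR adjusted p = 4.45e-19 and 8.63e-23). DDIT3 (CHOP), the stress factor tied to cell death, was 6.66, 6.90 and 8.80 CPM under PRMT5 knockdown, 6.47, 8.74 and 8.87 CPM under MEP50 knockdown and 8.49, 7.31 and 5.03 CPM in the control. The 3 groups overlapped, and neither knockdown passed the threshold against the control (log2 fold change 0.11 ± 0.155 with PRMT5 knockdown and 0.22 ± 0.158 with MEP50 knockdown, edgeR adjusted p = 0.584 and 0.256). DDIT3 shares 27.2% of its exonic bases with MARS on the opposite strand, which carried 82962 reads against 1804 for DDIT3 over the 9 libraries. The strand setting of the counting is not given in the sources used here, so it is not known how reads in the shared bases were assigned. CEBPB, another C/EBP factor, had large replicate spread, with log2 fold changes of -0.46 ± 0.212 with PRMT5 knockdown and -0.49 ± 0.216 with MEP50 knockdown (edgeR adjusted p = 0.122 and 0.107). Its PRMT5 knockdown and control libraries did not overlap, and the authors' deposited table lists CEBPB for that knockdown, with a DESeq2 adjusted p-value of 0.0392 and an edgeR FDR of 3.16e-07.

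XBP1, the factor activated by IRE1, was 121, 113 and 105 CPM under PRMT5 knockdown, 159, 167 and 159 CPM under MEP50 knockdown and 205, 226 and 209 CPM in the control. The groups did not overlap, and the PRMT5 knockdown was lowest. XBP1 fell 1.89-fold under PRMT5 knockdown (log2 fold change -0.92 ± 0.0412, edgeR adjusted p = 1.05e-18) and 1.32-fold under MEP50 knockdown (log2 difference -0.40 ± 0.0408, edgeR adjusted p = 5.45e-10). NUPR1, a small stress-induced chromatin protein, had 32.2, 28.4 and 32.7 CPM under PRMT5 knockdown, 47.8, 54.2 and 51.2 CPM under MEP50 knockdown and 13.9, 17.0 and 16.4 CPM in the control. Again no groups overlapped, here with the control lowest, and NUPR1 rose 1.96-fold under PRMT5 knockdown and 3.23-fold under MEP50 knockdown (log2 difference 0.97 ± 0.0749 and 1.69 ± 0.0733, edgeR adjusted p = 2.34e-14 and 2.83e-22).

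DDIT4 and CHAC1 are ATF4 targets that act downstream, DDIT4 (REDD1) as an inhibitor of mTORC1 and CHAC1 as an enzyme that breaks down glutathione. DDIT4 was 207, 198 and 186 CPM under PRMT5 knockdown, 429, 513 and 497 CPM under MEP50 knockdown and 262, 268 and 249.8 CPM in the control. It fell under PRMT5 knockdown (log2 fold change -0.40 ± 0.0745, edgeR adjusted p = 0.00270) and rose under MEP50 knockdown (0.88 ± 0.0733, edgeR adjusted p = 2.20e-05). CHAC1, at much lower levels, was 4.22, 3.97 and 4.51 CPM under PRMT5 knockdown, 7.44, 11.1 and 11.1 CPM under MEP50 knockdown and 4.87, 6.37 and 8.07 CPM in the control. The PRMT5 knockdown libraries were below all others, while the lowest MEP50 knockdown library was below the highest control library. CHAC1 was called lower under PRMT5 knockdown (-0.61 ± 0.165, edgeR adjusted p = 0.00233) and higher under MEP50 knockdown (0.62 ± 0.153, edgeR adjusted p = 0.000904). The pseudokinase gene TRIB3, which damps ATF4, averaged 119 ± 5.43 CPM under PRMT5 knockdown, 130.0 ± 10.5 CPM under MEP50 knockdown and 121 ± 6.12 CPM in the control. It was called in neither knockdown against the control, but without MEP50 knockdown library 1 its log2 fold change of 0.16 under MEP50 knockdown passed the threshold (edgeR adjusted p = 0.00482), as it did without control library 2 (0.14, edgeR adjusted p = 0.0210). The phosphatase subunit genes PPP1R15A (GADD34) and PPP1R15B (CReP), whose proteins reverse eIF2alpha phosphorylation, were lower under MEP50 knockdown, by 0.24 ± 0.0726 and 0.35 ± 0.0308 on the log2 scale (edgeR adjusted p = 0.00490 and 1.31e-12). The call of PPP1R15A was lost without MEP50 knockdown library 2 (edgeR adjusted p = 0.0839). Under PRMT5 knockdown both were near the control, with edgeR adjusted p of 0.962 for PPP1R15A and 0.620 for PPP1R15B.

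**Figure D3:**
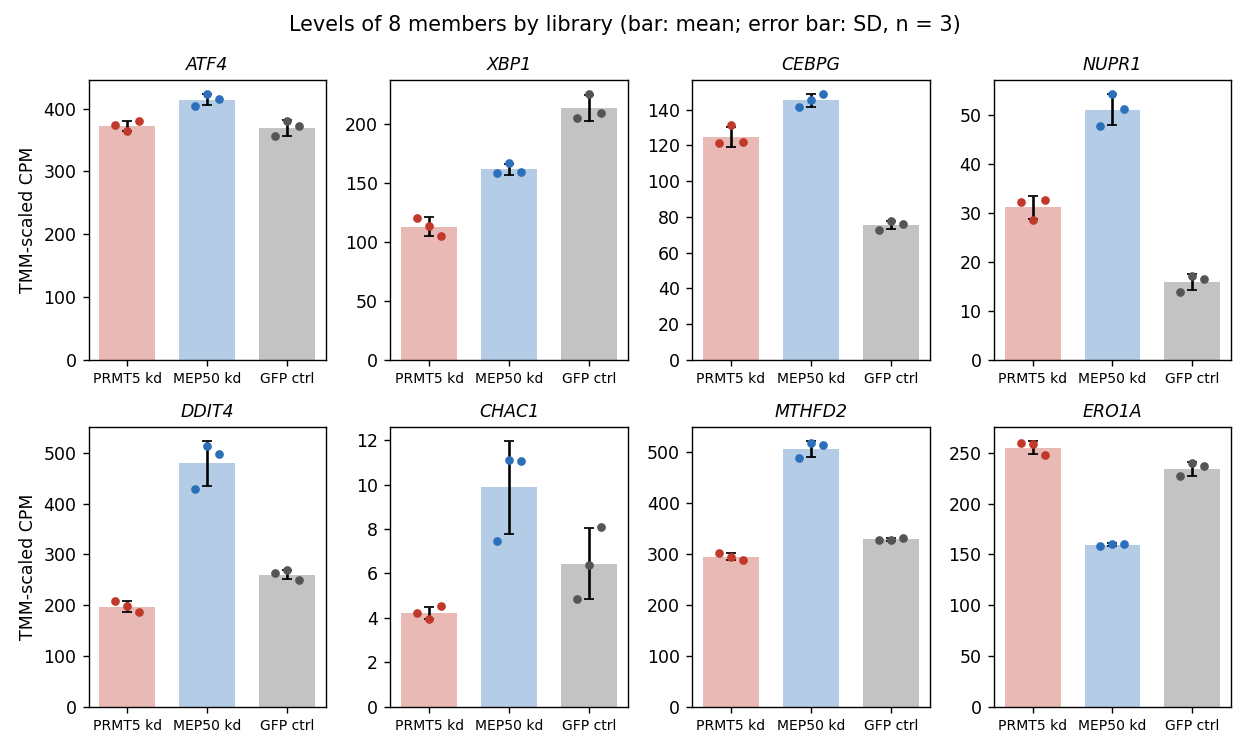
TMM-scaled CPM (vertical axes, linear) of ATF4, XBP1, CEBPG, NUPR1, DDIT4, CHAC1, MTHFD2 and ERO1A, with PRMT5 knockdown (kd), MEP50 knockdown and GFP control from left to right, points for libraries, bars for means and error bars for the SD (n = 3). XBP1 is lowest with PRMT5 knockdown, ATF4, CEBPG and NUPR1 are highest with MEP50 knockdown, and DDIT4, CHAC1 and MTHFD2 are below the control mean with PRMT5 knockdown and above it with MEP50 knockdown.

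The amino acid supply genes were read together with the C/EBP-ATF response element (CARE), the sequence that ATF4 binds as a dimer with C/EBP factors. Its letters TGATGNAA were searched on both strands in RefSeq promoter windows of GRCh38.p14, 250 bases before to 50 bases after each start. Of 41 members with a window, 9 (22.0%) held the motif, against 4.46% of 27305 genes with a window (3.62% of 35116 windows). The members were listed for their known part in these responses, and the 41 hold 61 windows, so the shares are descriptive only. These 9 were 5 of 12 amino acid supply genes, 3 of 14 signalling genes and 1 of 13 ER genes. No motif window shown overlaps the window of another motif. The windows of 30 bases are shown because they place the element in genes that moved differently, with the motif in capitals and read along the strand that carries it.
ASNS (chr7:97872458-97872487, minus strand): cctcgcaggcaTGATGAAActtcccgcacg
SLC1A4 (chr2:64989381-64989410, minus strand): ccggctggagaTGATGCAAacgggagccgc
SLC1A5 (chr19:46784893-46784922, minus strand): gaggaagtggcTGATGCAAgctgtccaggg
SLC7A1 (chr13:29595663-29595692, minus strand): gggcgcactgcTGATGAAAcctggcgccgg
SLC3A2 (chr11:62881719-62881748, minus strand): ggagcTGATGTAAggagtcctgcacattac
CEBPG (chr19:33374060-33374089, plus strand): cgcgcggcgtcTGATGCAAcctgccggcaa
CHAC1 (chr15:40953251-40953280, minus strand): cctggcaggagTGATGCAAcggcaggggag
PPP1R15B (chr1:204412026-204412055, minus strand): cccgccccggcTGATGCAAcctcacgctgc
HERPUD1 (chr16:56931955-56931984, minus strand): tgggcacgggcTGATGCAAcccgccgcgtc
ASNS and SLC7A1 carry the variant TGATGAAA, SLC3A2 carries TGATGTAA, and the other 6 carry TGATGCAA. The motif ended 34 (CEBPG) to 219 (PPP1R15B) bases before the start in 6 genes, and lay at or after the start in SLC1A4, SLC3A2 and SLC7A1. The median log2 fold change was 0.10 with and -0.03 without the motif under PRMT5 knockdown, and 0.29 with and 0.05 without it under MEP50 knockdown. Genes with the motif were more often amino acid supply genes, and the parts of motif and role in these medians were not tested. PPP1R15B holds the motif and was lower under MEP50 knockdown, while the windows of PHGDH and PSAT1, which were higher, hold no such letters. SHMT2, PSPH and NUPR1 were not among the 41. A match is a description of the letters and no evidence of binding.

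Of the 14 amino acid supply genes, 12 were higher and 2 lower under MEP50 knockdown, with a median log2 fold change of 0.42. Under PRMT5 knockdown 8 were higher and 3 lower, with a median of 0.17. The shares called higher were thus 85.7% under MEP50 knockdown and 57.1% under PRMT5 knockdown, beside 26.5% and 26.1% of all tested genes. Under MEP50 knockdown, library 1 was the lowest of its group for 14 of the 14 genes, and 12 were higher and 2 lower also without it. This was not particular to these genes, as that library was lowest for 31 of all 44 members. Among them were 12 of 15 signalling genes, 2 of 2 other ATF4 targets and 3 of 13 ER genes. Control library 1 was likewise the lowest of its group for 11 of 15 signalling genes. ASNS, which encodes asparagine synthetase, was 156, 147 and 151 CPM under PRMT5 knockdown, 226, 238 and 238 CPM under MEP50 knockdown and 107, 107 and 114 CPM in the control. The groups were fully separated, with ASNS 1.38-fold higher under PRMT5 knockdown (0.47 ± 0.0354, edgeR adjusted p = 1.55e-14) and 2.13-fold higher under MEP50 knockdown (1.09 ± 0.0352, edgeR adjusted p = 1.22e-26). The serine synthesis genes followed the same order. PHGDH, the first enzyme of serine synthesis, was 145, 142 and 143 CPM under PRMT5 knockdown, 194, 210.4 and 208 CPM under MEP50 knockdown and 98.6, 107 and 110.1 CPM in the control. PSAT1, the next enzyme, was 302, 299 and 277 CPM under PRMT5 knockdown, 399.8, 412 and 432 CPM under MEP50 knockdown and 232, 231 and 232 CPM in the control. In both genes every PRMT5 knockdown library was above the control and every MEP50 knockdown library was higher still. PHGDH rose by 0.44 ± 0.0381 with PRMT5 knockdown and 0.96 ± 0.0379 with MEP50 knockdown (log2 scale, edgeR adjusted p = 5.44e-13 and 1.37e-23), and PSAT1 by 0.34 ± 0.0322 with PRMT5 knockdown and 0.84 ± 0.0323 with MEP50 knockdown (edgeR adjusted p = 1.11e-11 and 4.74e-24). PSPH, the phosphatase of the last step of serine synthesis, rose by 0.21 ± 0.0540 with PRMT5 knockdown and 0.45 ± 0.0543 with MEP50 knockdown, and SHMT2, the mitochondrial enzyme that makes glycine from serine, by 0.22 ± 0.0320 with PRMT5 knockdown and 0.39 ± 0.0322 with MEP50 knockdown.

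MTHFD2, a mitochondrial enzyme of folate metabolism next to SHMT2, did not share this order. Its level was 301, 293 and 287 CPM under PRMT5 knockdown, 487, 516 and 514 CPM under MEP50 knockdown and 326, 327 and 331 CPM in the control. The PRMT5 knockdown lay wholly below the control and the MEP50 knockdown wholly above it, with log2 fold changes of -0.16 ± 0.0288 (edgeR adjusted p = 1.34e-05) and 0.63 ± 0.0287 (edgeR adjusted p = 1.70e-21). The transsulfuration enzymes CBS and CTH, which make cysteine from homocysteine by way of cystathionine, changed in opposite directions. CBS was 81.9, 74.5 and 76.0 CPM under PRMT5 knockdown, 98.6, 101 and 99.3 CPM under MEP50 knockdown and 58.2, 57.7 and 58.0 CPM in the control. CTH was 3.39, 3.16 and 2.59 CPM under PRMT5 knockdown, 3.33, 5.61 and 4.05 CPM under MEP50 knockdown and 19.0, 19.8 and 16.7 CPM in the control. CTH fell 6.10-fold under PRMT5 knockdown (-2.61 ± 0.136, edgeR adjusted p = 1.26e-19) and 4.28-fold under MEP50 knockdown (-2.10 ± 0.134, edgeR adjusted p = 7.12e-17), the largest change of any member in both. CBS rose by 0.42 ± 0.0436 with PRMT5 knockdown and 0.78 ± 0.0436 with MEP50 knockdown (edgeR adjusted p = 1.14e-10 and 9.09e-19). The ratio of CTH to CBS in TPM was 0.110 ± 0.0129 under PRMT5 knockdown, 0.122 ± 0.0308 under MEP50 knockdown and 0.897 ± 0.0798 in the control, with no overlap of either knockdown with the control.

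Of 6 amino acid carrier genes, SLC1A4, a carrier of alanine, serine and cysteine, changed most under MEP50 knockdown, and SLC38A2 changed most under PRMT5 knockdown. SLC1A4 was 28.3, 28.3 and 28.3 CPM under PRMT5 knockdown, 42.6, 54.8 and 53.7 CPM under MEP50 knockdown and 25.5, 23.5 and 26.7 CPM in the control. Only the MEP50 knockdown passed the threshold for SLC1A4 (1.00 ± 0.0723, edgeR adjusted p = 1.37e-14). The PRMT5 knockdown differed by 0.17 ± 0.0745 (edgeR adjusted p = 0.0627), which passed without MEP50 knockdown library 1 (edgeR adjusted p = 0.0300). SLC38A2, the starvation-induced glutamine and alanine carrier SNAT2, went the other way, with 545, 540.4 and 514 CPM under PRMT5 knockdown, 511, 517 and 528 CPM under MEP50 knockdown and 739.8, 732 and 762 CPM in the control. It fell by 0.48 ± 0.0274 with PRMT5 knockdown and 0.52 ± 0.0275 with MEP50 knockdown on the log2 scale (edgeR adjusted p = 2.00e-18 and 1.74e-19), with no overlap with the control. The glutamine carrier gene SLC1A5, the leucine carrier gene SLC7A5, its heavy chain gene SLC3A2 and the arginine carrier gene SLC7A1 rose by 0.29 ± 0.0293, 0.14 ± 0.0247, 0.16 ± 0.0274 and 0.25 ± 0.0327 on the log2 scale under MEP50 knockdown. Under PRMT5 knockdown SLC7A1 (0.17 ± 0.0325) and SLC3A2 (0.07 ± 0.0272) were called, and the SLC3A2 call was lost without control library 2 or 3 or PRMT5 knockdown library 2 (edgeR adjusted p up to 0.143). SLC7A5 and SLC3A2 form one heterodimer, and their ratio in TPM was steady at 3.51 ± 0.0843 under PRMT5 knockdown, 3.55 ± 0.0782 under MEP50 knockdown and 3.61 ± 0.0250 in the control.

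**Figure D4:**
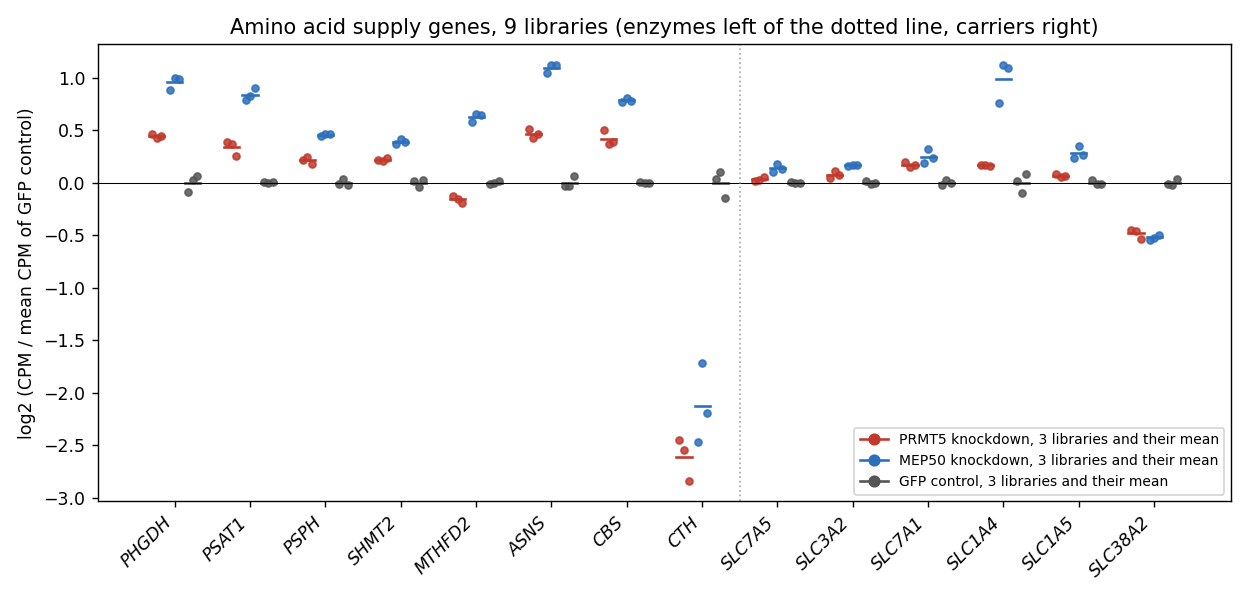
Log2 of CPM over the mean CPM of the GFP control (vertical axis) for 8 enzyme genes (left of the dotted line) and 6 carrier genes (right), with points for the libraries and lines for their mean in PRMT5 knockdown (red), MEP50 knockdown (blue) and control (grey). ASNS, PHGDH, PSAT1 and CBS are highest with MEP50 knockdown and intermediate with PRMT5 knockdown, MTHFD2 is below 0 with PRMT5 knockdown, and CTH and SLC38A2 are below 0 in all 6 knockdown libraries.

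The ER genes were read with the ER stress response elements that ATF6 and XBP1 bind together with the general factor NF-Y. The element ERSE, searched as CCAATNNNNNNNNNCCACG on both strands of the same windows, was found in 5 of 41 members (12.2%), against 0.0916% of all genes with a window (0.0769% of windows). The related ERSE-II, searched as ATTGG, any base and CCACG, was found in 3 of 41 members (7.32%), against 0.0696% of all genes with a window (0.0541% of windows). As for the C/EBP-ATF element, these shares are descriptive only. They are shown, with the motif in capitals, because XBP1, which fell in both knockdowns, and ER genes called lower, called higher or not called hold these letters.
XBP1 (chr22:28800597-28800626, minus strand): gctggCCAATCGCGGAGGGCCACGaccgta
CALR (chr19:12938378-12938407, minus strand): accgaCCAATGATGGTCGACCACGcgtggg
CANX (chr5:179698773-179698802, plus strand): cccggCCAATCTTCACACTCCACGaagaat
CRELD2 (chr22:49918548-49918577, minus strand): atggcCCAATCCGAGTTCGCCACGagaggt
PDIA6 (chr2:10812847-10812876, minus strand): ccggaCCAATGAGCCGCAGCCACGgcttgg
HERPUD1 (chr16:56932016-56932045, plus strand): cggacgccgATTGGGCCACGttgggagagt
HYOU1 (chr11:119057265-119057294, plus strand): cgcgtactcATTGGACCACGtcccaggccc
SDF2L1 (chr22:21642104-21642133, minus strand): agggttttgATTGGTCCACGcttccgagga
HYOU1 holds a second match of ERSE-II, and HERPUD1 holds both ERSE-II and the C/EBP-ATF element. The ERSE genes had log2 fold changes of -0.92 (XBP1), -0.19 (CALR), -0.06 (CANX), -0.17 (CRELD2) and 0.07 (PDIA6) under PRMT5 knockdown. Under MEP50 knockdown they had -0.40, -0.13, -0.07, 0.12 and 0.18, in the same gene order. Medians with and without ERSE were -0.17 and 0.02 under PRMT5 knockdown, and -0.07 and 0.18 under MEP50 knockdown. For ERSE-II they were -0.06 and 0.01 under PRMT5 knockdown, and -0.19 and 0.17 under MEP50 knockdown. Most of these genes are ER genes, so role and motif are mixed here too.

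Of the 13 ER genes, 3 were higher and 5 lower under PRMT5 knockdown, with a median log2 fold change of -0.06, and 4 were higher and 8 lower under MEP50 knockdown, with a median of -0.10. The lower calls made up 38.5% under PRMT5 knockdown and 61.5% under MEP50 knockdown, beside 24.9% and 25.2% of all tested genes. The lower count under PRMT5 knockdown was 3 without PRMT5 knockdown library 2, and that under MEP50 knockdown was 5 without control library 1 or MEP50 knockdown library 2. Only ERO1A passed 0.5 in absolute log2 fold change. ERO1A, the oxidase that drives disulfide bond formation and a gene also induced by hypoxia, was 259.7, 259 and 247 CPM under PRMT5 knockdown, 158, 161 and 161 CPM under MEP50 knockdown and 227, 239.9 and 237 CPM in the control. The PRMT5 knockdown lay above the control and the MEP50 knockdown below it, without overlap, with log2 fold changes of 0.12 ± 0.0306 (edgeR adjusted p = 0.000913) and -0.55 ± 0.0317 (edgeR adjusted p = 2.21e-18). HYOU1, an ER chaperone, was the folding gene that fell most under PRMT5 knockdown, with 136 ± 1.15 CPM under PRMT5 knockdown, 148 ± 7.88 CPM under MEP50 knockdown and 172 ± 2.83 CPM in the control. Its log2 fold changes were -0.34 ± 0.0349 with PRMT5 knockdown and -0.22 ± 0.0352 with MEP50 knockdown (edgeR adjusted p = 9.64e-11 and 1.69e-06). The protein disulfide isomerase genes PDIA4 and PDIA6 were higher under MEP50 knockdown, by 0.19 ± 0.0283 and 0.18 ± 0.0278 on the log2 scale. Under PRMT5 knockdown PDIA4 was not called and PDIA6 was called at 0.07 ± 0.0277 (edgeR adjusted p = 0.0231), a call lost on leaving out any control library or PRMT5 knockdown library 1 or 2 (edgeR adjusted p up to 0.280).

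Factors of ER-associated degradation moved in both directions. SEL1L, the adaptor of the ubiquitin ligase HRD1, averaged 248 ± 4.26 CPM under PRMT5 knockdown, 295 ± 7.67 CPM under MEP50 knockdown and 227 ± 4.55 CPM in the control. It rose by 0.13 ± 0.0299 under PRMT5 knockdown and 0.38 ± 0.0300 under MEP50 knockdown on the log2 scale (edgeR adjusted p = 0.000399 and 4.37e-14). SYVN1, which encodes HRD1 itself, averaged 31.6 ± 1.69 CPM under PRMT5 knockdown, 26.7 ± 1.98 CPM under MEP50 knockdown and 35.6 ± 2.24 CPM in the control. Partners of one ligase complex thus had opposite signs, SYVN1 falling by 0.17 ± 0.0654 with PRMT5 knockdown and 0.41 ± 0.0680 with MEP50 knockdown (edgeR adjusted p = 0.0271 and 2.45e-06), though its call under PRMT5 knockdown was lost without control library 2 or PRMT5 knockdown library 1 or 2 (edgeR adjusted p up to 0.183). SYVN1 shares 7.24% of its exonic bases with FAU on the same strand, which had 33237 reads against 7632 for SYVN1. EDEM1, which extracts misfolded glycoproteins, fell under MEP50 knockdown by 0.30 ± 0.0554 (edgeR adjusted p = 1.85e-05), and HERPUD1, a scaffold of the ligase, rose in it by 0.21 ± 0.0448 (edgeR adjusted p = 0.000129). Under PRMT5 knockdown EDEM1 (-0.03 ± 0.0535) and HERPUD1 (0.10 ± 0.0442) were not called, and HERPUD1 passed without PRMT5 knockdown library 2 (edgeR adjusted p = 0.0390).

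The rest of the ER group stayed close to the control. CALR differed by -0.19 ± 0.0257 with PRMT5 knockdown and -0.13 ± 0.0257 with MEP50 knockdown and CANX by -0.06 ± 0.0229 with PRMT5 knockdown and -0.07 ± 0.0229 with MEP50 knockdown on the log2 scale, all called. The CANX call under MEP50 knockdown was lost without control library 1 or MEP50 knockdown library 2 (edgeR adjusted p up to 0.0683). MANF, a secreted ER stress protein, was called at -0.11 ± 0.0432 with PRMT5 knockdown and -0.10 ± 0.0440 with MEP50 knockdown, but in each knockdown several single libraries decided the call. Without them the edgeR adjusted p was up to 0.111 under PRMT5 knockdown (control library 1 or 3, or PRMT5 knockdown library 2) and up to 0.194 under MEP50 knockdown (control library 1 or 3, MEP50 knockdown library 2 or 3, or PRMT5 knockdown library 3). SDF2L1, a cofactor of the ER chaperone BiP, was called under MEP50 knockdown at -0.19 ± 0.0803 (edgeR adjusted p = 0.0467), which was lost without control library 1 or 2 or any MEP50 knockdown library (edgeR adjusted p up to 0.176). CRELD2, a secreted ER protein, was called in neither knockdown (-0.17 ± 0.0786 with PRMT5 knockdown and 0.12 ± 0.0788 with MEP50 knockdown), but passed under PRMT5 knockdown without control library 2, PRMT5 knockdown library 1 or MEP50 knockdown library 1 (edgeR adjusted p of 0.0130 to 0.0490).

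Both other ATF4 targets rose in both knockdowns. VLDLR, a lipoprotein receptor, was 28.9, 26.9 and 27.8 CPM under PRMT5 knockdown, 39.6, 41.3 and 42.4 CPM under MEP50 knockdown and 12.9, 14.4 and 14.5 CPM in the control. The groups did not overlap, and VLDLR was 1.99-fold higher under PRMT5 knockdown (1.00 ± 0.0716, edgeR adjusted p = 2.98e-15) and 2.95-fold higher under MEP50 knockdown (1.56 ± 0.0706, edgeR adjusted p = 1.16e-21). STC2, a secreted glycoprotein hormone, was 114, 110.1 and 109 CPM under PRMT5 knockdown, 110.3, 119.7 and 118 CPM under MEP50 knockdown and 65.6, 65.2 and 65.0 CPM in the control. Both knockdowns were above the control, by 0.77 ± 0.0403 with PRMT5 knockdown and 0.83 ± 0.0408 with MEP50 knockdown (edgeR adjusted p = 1.68e-19 and 1.61e-20).

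Set directly against each other, the knockdowns differed in 12 of 14 amino acid supply genes, with the higher level under MEP50 knockdown in each. Under PRMT5 knockdown against the MEP50 knockdown, 5 of the 44 members were higher and 27 lower, where 19.2% and 20.5% of all tested genes were called. A call with an absolute log2 fold change of at least 0.5 was met by 12 members (27.3%), against 9.65% of all tested genes, and the libraries did not overlap for 30 members (68.2%), against 47.2%. Among amino acid supply genes 12 of 14 were lower under PRMT5 knockdown and none was higher, with 11 to 13 lower and none higher on leaving out any library. All 8 enzyme genes were lower, with ASNS at -0.63 ± 0.0343, PHGDH at -0.51 ± 0.0370, PSAT1 at -0.50 ± 0.0319, CBS at -0.37 ± 0.0423 and MTHFD2 at -0.78 ± 0.0288 on the log2 scale. CTH, low in both, was at -0.51 ± 0.164 (edgeR adjusted p = 0.0114), a call lost without MEP50 knockdown library 2 (edgeR adjusted p = 0.173) or PRMT5 knockdown library 3 (0.0675). SLC1A4 showed the largest difference among the carriers, -0.84 ± 0.0710 (edgeR adjusted p = 3.14e-12).

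Among signalling genes 2 of 15 were higher and 8 lower under PRMT5 knockdown than under MEP50 knockdown. These shares were 13.3% and 53.3%, beside 19.2% and 20.5% of all tested genes. ATF4 was lower by 0.15 ± 0.0291 (edgeR adjusted p = 3.90e-05), XBP1 by 0.52 ± 0.0420 and NUPR1 by 0.72 ± 0.0675, all on the log2 scale. The largest differences of any members were those of DDIT4, -1.28 ± 0.0743 (edgeR adjusted p = 3.99e-06), and CHAC1, -1.23 ± 0.160 (edgeR adjusted p = 1.17e-07). PPP1R15A (0.24 ± 0.0723) and PPP1R15B (0.33 ± 0.0308) were the 2 higher ones, and the first was not called without MEP50 knockdown library 2 or PRMT5 knockdown library 3, which left 1. Calls of ATF6 (-0.13) and TRIB3 (-0.13) were lost on leaving out single knockdown libraries (for ATF6 PRMT5 library 1 or 2 or MEP50 library 3, for TRIB3 PRMT5 library 2 or 3 or MEP50 library 2 or 3, edgeR adjusted p up to 0.0941 and 0.196). EIF2AK3, EIF2AK4, SLC7A1, CALR and STC2 were not called, with log2 fold changes of 0.17, -0.08, -0.08, -0.06 and -0.06. Leaving out a single library gave a call to EIF2AK3 (PRMT5 library 1), EIF2AK4 and STC2 (MEP50 library 1), SLC7A1 (control library 1 or 3, MEP50 library 1 or PRMT5 library 1) and CALR (control library 3, MEP50 library 2 or PRMT5 library 3). HERPUD1 was called at -0.11 ± 0.0443 (edgeR adjusted p = 0.0437), which was lost without control library 2, MEP50 library 1 or 3 or PRMT5 library 2 (edgeR adjusted p up to 0.207). Of the 13 ER genes, 3 were higher (23.1%) and 6 lower (46.2%), beside the same 19.2% and 20.5% of all tested genes. ERO1A was 1.60-fold higher under PRMT5 knockdown (0.68 ± 0.0315, edgeR adjusted p = 1.83e-20). VLDLR was lower under PRMT5 knockdown by 0.56 ± 0.0650 (edgeR adjusted p = 2.78e-09).

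Further genes of these pathways came from a list of 100, of which 96 were tested. Of 55 tested ER genes, 4 were higher and 35 lower under PRMT5 knockdown, with a median log2 fold change of -0.16, and 8 were higher and 25 lower under MEP50 knockdown, with a median of -0.09. The lower calls were 63.6% of these genes under PRMT5 knockdown and 45.5% under MEP50 knockdown, beside 24.9% and 25.2% of all tested genes. The higher calls were 7.27% and 14.5%, beside 26.1% and 26.5%. ERO1B, the paralogue of ERO1A, was at -1.05 ± 0.0680 under PRMT5 knockdown and -1.19 ± 0.0707 under MEP50 knockdown, and WFS1, an ER membrane protein mutated in Wolfram syndrome, at -0.83 ± 0.0656 with PRMT5 knockdown and -0.74 ± 0.0668 with MEP50 knockdown. KDELR2, a receptor that returns proteins to the ER, rose by 0.72 ± 0.0380 with PRMT5 knockdown and 0.50 ± 0.0387 with MEP50 knockdown, and the transcription factor gene CREB3L2 was at -0.05 ± 0.0542 with PRMT5 knockdown, which was not called, and rose by 0.68 ± 0.0530 with MEP50 knockdown. SSR1, a subunit of the translocon-associated complex, was lower at -0.20 ± 0.0281 with PRMT5 knockdown and -0.58 ± 0.0286 with MEP50 knockdown, and the oligosaccharyltransferase subunit gene RPN2 was lower at -0.40 ± 0.0272 with PRMT5 knockdown and -0.51 ± 0.0275 with MEP50 knockdown. Of 21 further amino acid genes, 11 were higher and 5 lower under PRMT5 knockdown and 8 were higher and 5 lower under MEP50 knockdown. Of these genes 52.4% were higher and 23.8% lower under PRMT5 knockdown, beside 26.1% and 24.9% of all tested genes. Under MEP50 knockdown 38.1% were higher and 23.8% lower, beside 26.5% and 25.2%. GPT2, the mitochondrial alanine aminotransferase, rose by 0.74 ± 0.0572 with PRMT5 knockdown and 1.27 ± 0.0567 with MEP50 knockdown, and the folate enzyme gene ALDH1L2 rose by 0.28 ± 0.0363 with PRMT5 knockdown and 1.05 ± 0.0360 with MEP50 knockdown. The cystine carrier gene SLC7A11 rose by 0.53 ± 0.0310 with PRMT5 knockdown and 0.18 ± 0.0313 with MEP50 knockdown, while SLC43A1, a carrier of neutral amino acids, was lower at -0.98 ± 0.112 with PRMT5 knockdown and -0.40 ± 0.110 with MEP50 knockdown.

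Of 20 further genes of the integrated stress response, 8 were higher and 3 lower under PRMT5 knockdown and 8 were higher and 4 lower under MEP50 knockdown. That is 40% higher and 15% lower under PRMT5 knockdown, beside 26.1% and 24.9% of all tested genes, and 40% higher and 20% lower under MEP50 knockdown, beside 26.5% and 25.2%. The count of 8 under PRMT5 knockdown was 5 without its library 1, and the 5 lower amino acid genes there were 3 without PRMT5 knockdown library 1 or control library 3. ADM2, a secreted peptide of the adrenomedullin family, rose by 0.78 ± 0.199 with PRMT5 knockdown and 1.06 ± 0.199 with MEP50 knockdown, and JDP2, a bZIP repressor, by 0.32 ± 0.0692 with PRMT5 knockdown and 1.00 ± 0.0677 with MEP50 knockdown. NFIL3, another bZIP repressor, was lower at -0.92 ± 0.0660 with PRMT5 knockdown and -0.99 ± 0.0681 with MEP50 knockdown, as was GDF15, a stress-induced cytokine, at -0.83 ± 0.0590 with PRMT5 knockdown and -0.96 ± 0.0611 with MEP50 knockdown. Between the knockdowns, 2 of these 20 genes were higher (10%) and 4 lower (20%) under PRMT5 knockdown, beside 19.2% and 20.5% of all tested genes. The higher count was 1 without PRMT5 knockdown library 3 and 5 with scaling to library totals. Of the 21 amino acid genes, 7 were higher (33.3%) and 11 lower (52.4%), and of the 55 ER genes 9 (16.4%) and 19 (34.5%).

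The authors' deposited tables of changed genes list 26 of the 44 members for the PRMT5 knockdown and 34 for the MEP50 knockdown. Of the 26, 25 were called here and CEBPB was not, and all 34 were called here. In the other direction, 28 members were called here under PRMT5 knockdown and 37 under MEP50 knockdown. SLC3A2, PDIA6 and CANX under PRMT5 knockdown, and CANX, SDF2L1 and MANF under MEP50 knockdown, were called here but are not in those tables. The edgeR log2 fold changes in the authors' deposited table differed from those given here by at most 0.00296 for the PRMT5 knockdown and 0.00755 for the MEP50 knockdown, with the same sign for every member listed.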

How the data were processed

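Per the labels' protocols, the 9 A549 libraries were stranded and made from total RNA freed of rRNA. The table the authors deposited gives counts, whole numbers of reads for each Ensembl gene. Per the submitters' processing notes, Trim Galore, STAR and HTSeq were used on the hg19 build. Versions, strand setting and the sequences of the hairpins are not given in the sources used here. Tables of comparisons that the authors deposited hold, by their headers, log2 fold changes of DESeq2 and edgeR. An adjusted p-value and an FDR stand beside them in these deposited tables.

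All 9 libraries went into 1 edgeR fit (edgeR 4.0.16, R 4.3.3) whose model held the group alone (TMM, filterByExpr, robust quasi-likelihood, Benjamini-Hochberg adjustment over 14582 genes). HTSeq's summary lines were left out of library sizes. The SE was obtained by dividing the size of the log2 fold change by the square root of F. TPM used GENCODE exon lengths on GRCh38, so no coordinates of counted genes are given. Gene names covered 86.5% of identifiers, and all 44 members and all 100 further genes were matched. Each member was called or not by the same fit, and those with an absolute log2 fold change of at least 0.5 in a call, and 7 central signalling genes, are given by library; the others by mean or fold change. Of the further genes, up to 3 per direction, role and comparison could be named. The members and lists were chosen with earlier results of these data known. Alternatives were other scalings (RLE, upper-quartile, library totals), DESeq2 1.42.0, other filters, library sizes without mitochondrial and short genes, fits of 6 libraries, the replicate number as a block, and leaving out each library. The method was tested on simulated data drawn with 1 common spread for all genes, so genes of larger spread, such as CEBPB, are not covered. Of simulated log2 changes of 0.5, 77% were recovered for the PRMT5 knockdown and 78% for the MEP50 knockdown. Of changes of 1, 97% were recovered in each, and 0.0493% of unchanged genes were called. In each simulation 100 genes were changed per size, among 14387 genes (PRMT5 knockdown) or 14411 genes (MEP50 knockdown). In the data a far larger share was called, with 26.1% higher and 24.9% lower under PRMT5 knockdown. The Benjamini-Hochberg cut-off loosens as more genes change, so 0.0493% is not the rate of false calls in these data.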

Additional observations from a re-analysis of the deposited data

Results flagged for a closer look

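DDIT4, CHAC1, MTHFD2 and ERO1A were called in opposite directions in the PRMT5 and MEP50 knockdowns against the same control. The rule that flagged them also required a call between the knockdowns. The adjusted p-values below were thus part of the selection and are no further test of these genes. DDIT4 was lower in the PRMT5 knockdown than in the MEP50 knockdown, with a log2 fold change of -1.28 (edgeR adjusted p = 3.99e-06). CHAC1 differed by -1.23 (edgeR adjusted p = 1.17e-07) and MTHFD2 by -0.78 (edgeR adjusted p = 5.86e-24), in the same direction. ERO1A was higher in the PRMT5 knockdown than in the MEP50 knockdown, by 0.68 (edgeR adjusted p = 1.83e-20).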

How the results depend on the processing

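No call on a member changed direction under any alternative run. With no low-count filter, the median log2 fold change in the MEP50 knockdown against the control was 0.15 over the 44 members and 0.40 over the amino acid supply genes. With library totals in place of TMM, the medians of the PRMT5 knockdown against the MEP50 knockdown were -0.10 over the 44 members, -0.28 over amino acid supply genes and -0.0351 over ER genes, and 5 of the further stress response genes were called higher. WDR77 in the PRMT5 knockdown lost its call with DESeq2 (log2 fold change 0.16, adjusted p = 0.0637) and lay between 0.11 and 0.19 when single libraries were left out.

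Among members, the calls of SLC3A2 and PDIA6 under PRMT5 knockdown ended with no low-count filter, and those of SDF2L1 and MANF under MEP50 knockdown ended with DESeq2. Between the knockdowns, HERPUD1 lost its call under 5 of the other alternatives and TRIB3 with library totals. Library totals added calls of SLC1A4, SLC1A5 and HERPUD1 under PRMT5 knockdown and of EIF2AK3 between the knockdowns, and a few other settings added calls of SLC1A4, CRELD2, SLC7A1, CALR and EIF2AK3.

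On leaving out single libraries, counts in the PRMT5 knockdown against the control ranged from 3 to 6 for lower ER genes, 5 to 8 for higher further stress response genes and 3 to 5 for lower further amino acid genes, with medians of -0.0762 to -0.00929 for ER genes and 0.15 to 0.17 for amino acid supply genes. In the MEP50 knockdown against the control, lower ER genes ranged from 5 to 8, and medians were -0.125 to -0.0801 for ER genes, 0.16 to 0.18 for all members and 0.0355 to 0.157 for signalling genes. In the PRMT5 knockdown against the MEP50 knockdown, counts were 1 to 3 for higher signalling genes, 1 to 2 for lower other targets (2 without MEP50 knockdown library 1) and 1 to 3 for higher further stress response genes. Medians there were -0.0839 to -0.0432 for ER genes, -0.17 to -0.12 for all members and -0.33 to -0.28 for amino acid supply genes. The cause of these shifts was not tested.

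The replicate numbers are not known to pair the libraries. Deviations of same-numbered libraries from their group means correlated at -0.0361 to 0.0517, and 6 of 9 libraries correlated best with their own number. Differently numbered libraries of different groups correlated at -0.0544 to 0.0518. Between control and MEP50 knockdown libraries alone, same-numbered pairs lay at 0.0442 to 0.0517 and differently numbered pairs at -0.0462 to 0.00151. With the replicate number as a block, TRIB3 became called under MEP50 knockdown (log2 difference 0.10, edgeR adjusted p = 0.0346), and no other member's call changed.

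CEBPB had the widest SE of the 44 members in each comparison with 34876 reads over the 9 libraries. For ERN1, CHAC1, CTH and DDIT3, which had few reads, depth limits the precision. For members not called, such as ERN1 and DDIT3, a missed threshold does not show equal levels.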
